A study of Mus musculus with 6 samples.

Results

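The cell cycle and DNA replication genes described here are a list of 44 genes chosen by name, of which 43 were measured among 19938 genes; a gene with several probe sets is given by its brightest one, and Ccnb1 was not analysed here. The cells were naive CD4 T cells of C57BL/6 Foxp3-GFP mice, 6 weeks old and carrying a fluorescent reporter of Foxp3, the defining factor of regulatory T cells. They came from the peripheral lymph nodes and were enriched with magnetic beads and sorted as CD4+, CD8-, TCRβ+, CD44-low, CD25- and Foxp3-, and then as Ly-6C-negative or Ly-6C-positive, 3 arrays each. All groups share the strain, the reporter, the tissue and the age. The labels number the samples as biological replicates and do not give the mice behind each. The p-values thus judge a difference against the spread between these samples, which limma moderates over all genes. Differences are on the log2 scale of the arrays, with Ly-6C-positive cells subtracted from Ly-6C-negative cells (a difference of 1 is 2-fold).

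A cell that divides first licenses its replication origins by loading the MCM helicase, then copies its DNA with the help of PCNA and enzymes that make deoxynucleotides, and finally separates its chromosomes on a spindle under the control of cyclin-dependent, Aurora and Polo-like kinases. Factors of the E2F family switch on the genes of the first steps, and many genes of the last steps are held silent in resting cells by a repressor complex bound at short promoter elements. Naive T cells rest outside the cycle until they meet antigen. In bulk samples, fewer cells with a transcript and less transcript per cell cannot be told apart, so a level here does not say how many cells were cycling.

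The sort was visible in the arrays. The probe set 10429568, listed under both Ly6c1 and Ly6c2, read 8.22, 8.69 and 8.55 in Ly-6C-negative cells, against 11.58, 11.71 and 11.69 in Ly-6C-positive cells. Cd44, a gene of the sort gate, differed by -0.25 and did not overlap (limma adjusted p = 0.427). Cd4 read 10.47, 10.30 and 10.72 in Ly-6C-negative cells, against 10.55, 10.63 and 10.58 in Ly-6C-positive cells. The naive T cell list of 7 genes had mean levels that overlapped between the groups. The medians of the arrays ran from 6.25 to 6.27 in Ly-6C-negative cells and from 6.28 to 6.29 in Ly-6C-positive cells, without overlap. The 3 arrays a group limit the precision. Ly-6C-negative replicates 2 and 3 were the least alike arrays of 1 group, with a correlation of 0.993 across genes.

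No member passed limma's threshold of adjusted p 0.05 over all genes, where 29 genes, or 0.145%, did. When same-numbered arrays were treated as pairs (the replicate block), 1 of 43 passed, where 0.206% of all genes did in either direction; this was Myb, which was higher in Ly-6C-negative cells, a direction in which 0.140% of all genes passed. An unadjusted p under 0.05 was reached by 9 members in the higher direction and 1 in the lower, against 3.44% and 3.27% of all genes. The arrays of both groups did not overlap in 12 members that were higher in Ly-6C-negative cells, where 6.12% of all genes did so, and in 1 that was lower, where 6.50% did. Of the 43 differences 28 lay above 0, as did 47.8% of all genes, and their median was 0.048 against -0.0048 over all genes. Without Ly-6C-negative replicate 1 that median was 0.094, with 29 members above 0.

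**Figure D1:**
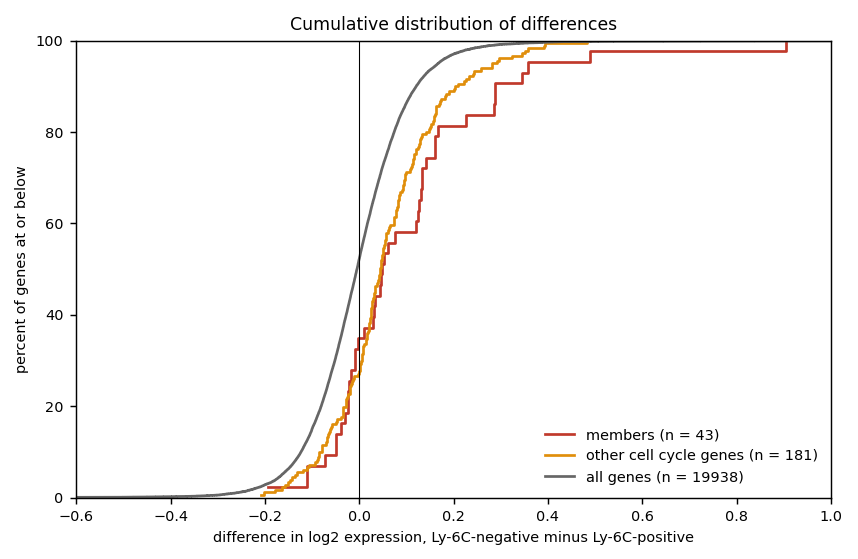
Percent of genes at or below each difference in log2 expression (x axis, Ly-6C-negative minus Ly-6C-positive), for the 43 members, 181 other cell cycle genes and all 19938 genes. At their medians of 0.048 and 0.044 both cell cycle curves lie right of the curve of all genes, and Myb at 0.91 and Top2a at 0.49 are the rightmost members.

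Myb, the gene of the transcription factor c-Myb, which blood cell progenitors and thymocytes express and which drives genes of proliferation and survival, had the largest difference of the members. It read 9.03, 8.51 and 8.50 in Ly-6C-negative replicates 1, 2 and 3, against 7.97, 7.69 and 7.66 in Ly-6C-positive replicates 1, 2 and 3. All Ly-6C-negative arrays lay above all Ly-6C-positive arrays, and replicate 1 was the highest in both groups. The means were 8.68 ± 0.30 and 7.77 ± 0.17 (SD, n = 3 each), a difference of 0.91 with a standard error (SE) of 0.14 and a 95% interval of 0.58 to 1.23, or 1.87-fold. It missed the threshold without the block (limma adjusted p = 0.0643) and passed with it (limma adjusted p = 0.00133, standard error 0.080), the same-number differences being 1.06, 0.82 and 0.84. Without the block it also passed when Ly-6C-negative replicate 2 was left out (limma adjusted p = 0.0368), and did not when any other single array was left out. With the block it did not pass without the replicate 1 pair (limma adjusted p = 0.0797), in a range of limma adjusted p over all alternatives from 0.000361 to 0.457. The other factors had smaller values: E2f1 differed by -0.017 (95% interval -0.22 to 0.18) and E2f2, another E2F activator, by -0.11 (95% interval -0.31 to 0.087), and the arrays of the groups overlapped in both.

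The next role holds 4 genes of proliferation and chromosome structure: Top2a, Mki67, Stmn1 and Hmgb2. Only Top2a of these had a smaller p than Cdc6 and Cenpe of other roles. Top2a, the topoisomerase that untangles replicated chromosomes, read 7.70, 7.40 and 7.52 in Ly-6C-negative cells, against 7.04, 6.97 and 7.14 in Ly-6C-positive cells, so the groups did not overlap. Its difference was 0.49 (SE 0.090, limma adjusted p = 0.139, and 0.0749 with the block). Leaving out Ly-6C-negative replicate 2 took it past the threshold (limma adjusted p = 0.0385), which leaving out any other single array did not. A second Top2a probe set, annotated to a cDNA clone and to no RefSeq transcript, differed by 0.029, and a pair of probe sets listed under both Top2a and Hibadh differed by -0.12 and -0.10; none of these passed. The mean of both single-symbol Top2a probe sets differed by 0.26 (limma adjusted p = 0.474).

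Mki67, the gene of the Ki-67 antigen that coats mitotic chromosomes, read 6.15, 6.13 and 5.87 in Ly-6C-negative cells, against 5.69, 5.52 and 5.88 in Ly-6C-positive cells. The replicate 3 arrays read alike and made the groups overlap, while the arrays of replicates 1 and 2 were apart by 0.46 and 0.61. The difference was 0.36 (SE 0.11, limma adjusted p = 0.523), and with the block it passed only when the replicate 3 pair was left out (limma adjusted p = 0.0300). Stmn1, which encodes the microtubule-destabilising protein stathmin, read 11.19, 11.12 and 11.00 in Ly-6C-negative cells, against 10.81, 10.70 and 10.92 in Ly-6C-positive cells. Its groups did not overlap, its difference was 0.29 (SE 0.081, limma adjusted p = 0.473), and a second probe set gave 0.30. Hmgb2, a chromatin protein that bends DNA, differed by 0.13 (95% interval -0.078 to 0.34) with overlapping groups, and its 3 further probe sets by 0.13 to 0.18. All 4 genes of this role lay above 0, with a median of 0.32 and none past the threshold.

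**Figure D2:**
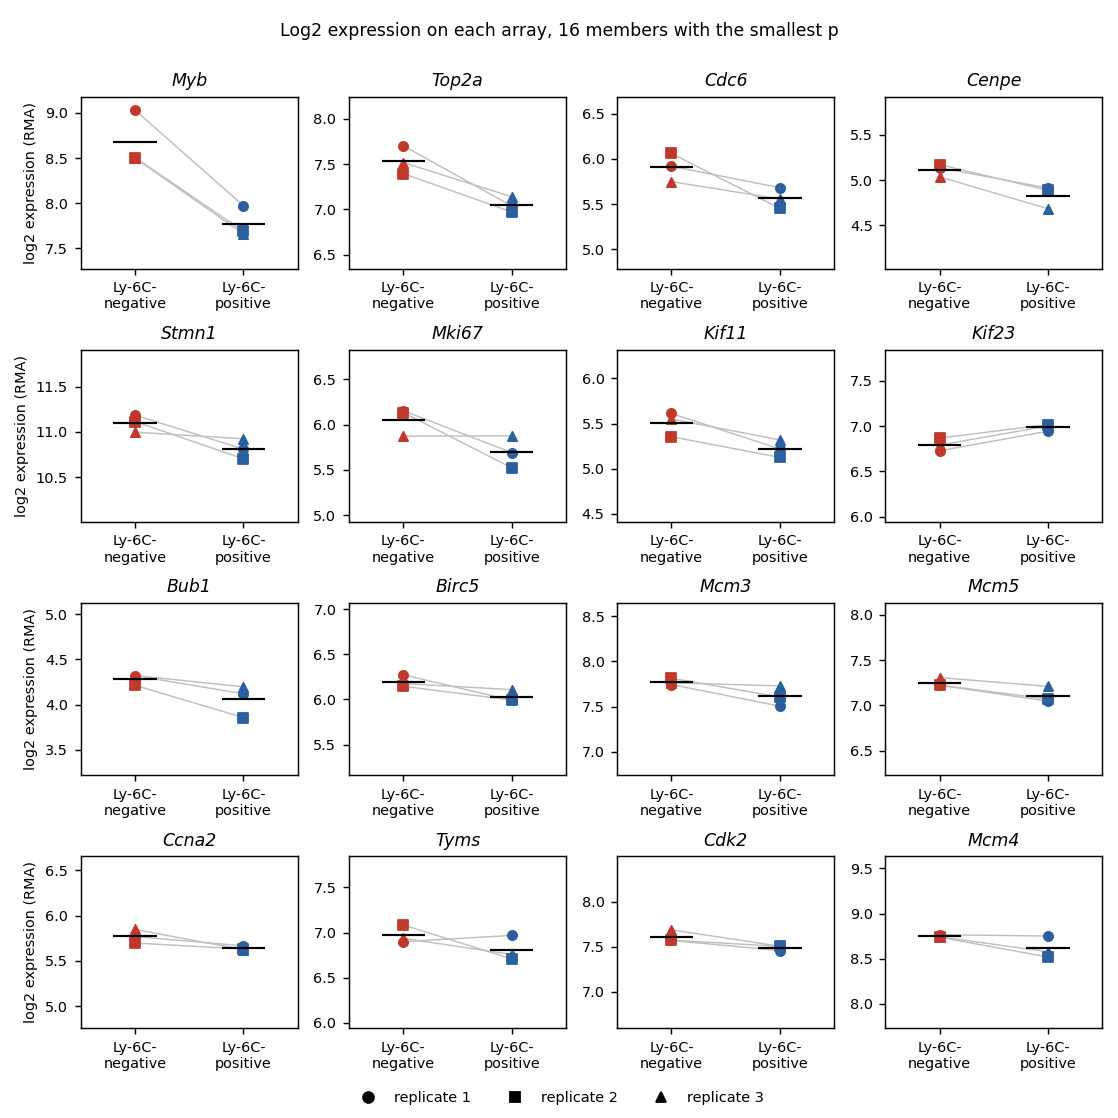
Log2 expression (y axis, each panel spanning the same range of log2 units) of the 16 members with the smallest p, on the Ly-6C-negative arrays (red, left) and the Ly-6C-positive arrays (blue, right); symbols are replicates, grey lines join the same replicate number and bars are group means. Myb is the member whose groups stand farthest apart, at 8.68 and 7.77, and Kif23 is the member with a lower mean in Ly-6C-negative cells.

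The promoters of Myb, Top2a, Cdc6, Cenpe and Mki67 are shown because these are the first 5 members in order of p with a RefSeq window, and because promoter elements tie many cell cycle genes together. Each line gives the 200 bases before the RefSeq start site (GRCm38.p6), read 5′ to 3′ on the gene's strand: chr10:21160985-21161184 on the minus strand for Myb, chr11:99024190-99024389 on the minus strand for Top2a, chr11:98907951-98908150 on the plus strand for Cdc6, chr3:135212363-135212562 on the plus strand for Cenpe and chr7:135716380-135716579 on the minus strand for Mki67. Capitals mark matches, on either strand, to the cell cycle homology region TTTGAA, to the CCAAT box, and to the E2F letters TTTGGCG or TTTCGCG.
Myb: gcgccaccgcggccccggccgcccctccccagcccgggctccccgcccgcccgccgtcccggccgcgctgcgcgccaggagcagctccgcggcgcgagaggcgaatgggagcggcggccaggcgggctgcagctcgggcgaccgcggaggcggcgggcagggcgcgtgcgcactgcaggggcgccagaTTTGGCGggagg
Top2a: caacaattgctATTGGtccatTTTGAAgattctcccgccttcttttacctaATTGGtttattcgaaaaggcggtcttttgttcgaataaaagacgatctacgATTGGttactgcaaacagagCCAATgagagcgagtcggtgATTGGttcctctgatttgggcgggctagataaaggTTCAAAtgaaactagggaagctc
Cdc6: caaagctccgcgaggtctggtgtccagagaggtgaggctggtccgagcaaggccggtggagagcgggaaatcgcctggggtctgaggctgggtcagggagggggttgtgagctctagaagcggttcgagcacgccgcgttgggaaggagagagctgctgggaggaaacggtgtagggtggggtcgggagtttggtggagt
Cenpe: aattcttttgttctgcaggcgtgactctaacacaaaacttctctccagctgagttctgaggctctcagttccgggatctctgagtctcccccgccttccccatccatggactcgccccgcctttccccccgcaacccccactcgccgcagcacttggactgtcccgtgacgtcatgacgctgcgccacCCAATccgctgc
Mki67: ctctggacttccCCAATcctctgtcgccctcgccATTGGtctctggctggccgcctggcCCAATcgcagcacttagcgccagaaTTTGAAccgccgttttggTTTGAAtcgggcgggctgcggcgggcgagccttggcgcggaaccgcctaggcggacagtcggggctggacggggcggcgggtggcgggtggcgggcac
The Myb window holds 1 E2F match, close to the start site, and neither of the other letters. The Top2a window holds 2 TTTGAA and 5 CCAAT matches and the Mki67 window 2 and 3, with no E2F match in either. The Cenpe window holds 1 CCAAT match, and none of the letters are in the Cdc6 window. Over the 250 bases before the start site, 36 measured members had a window. Of these 9, or 25%, held TTTGAA, against 16.3% of 27025 genes with a window, 26 (72.2%) held CCAAT, against 34.5%, and 4 (11.1%) held an E2F match, against 1.96%. All 9 with TTTGAA also held CCAAT. The 9 members with TTTGAA had a median difference of 0.048 and the 27 without it 0.052, and the 26 with CCAAT had 0.047 and the 10 without it 0.090, while the 4 with an E2F match, Myb among them, had 0.11 and the 32 without it 0.047. The letters were chosen after the sequences and values were seen, and a match is a description of the sequence only. Other forms of the E2F site were not searched, so a window without a match may still hold one. A gene with several windows was given by the first listed.

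Genes that license and fire replication origins lay mostly above 0 by small amounts, 7 of 9, with a median difference of 0.12 and none past the threshold. Cdc6, which loads the MCM helicase on origins, read 5.92, 6.06 and 5.75 in Ly-6C-negative cells, against 5.68, 5.45 and 5.56 in Ly-6C-positive cells. The groups did not overlap, and the difference was 0.35 (SE 0.094, limma adjusted p = 0.458). Of the helicase subunits, Mcm3 read 7.74, 7.81 and 7.76 in Ly-6C-negative cells, against 7.50, 7.61 and 7.73 in Ly-6C-positive cells. Mcm5 read 7.22, 7.22 and 7.31 in Ly-6C-negative cells, against 7.05, 7.07 and 7.21 in Ly-6C-positive cells. In both subunits the lowest Ly-6C-negative array lay just above the highest Ly-6C-positive array, with differences of 0.16 and 0.14 (limma adjusted p of 0.753 and 0.793). Mcm4 read 8.77, 8.74 and 8.74 in Ly-6C-negative cells, against 8.75, 8.52 and 8.58 in Ly-6C-positive cells, and overlapped. Mcm7 and Mcm6 differed by 0.12 and 0.076, while Mcm2 differed by -0.0026 (95% interval -0.15 to 0.14), so the 6 subunits of 1 complex, which work in equal numbers, ran from -0.0026 to 0.16. Cdc45, the helicase's activator, differed by 0.048 and Pcna, the sliding clamp of the polymerases, by -0.023 (95% interval -0.17 to 0.12). The pair of Pcna probe sets in the table holds identical values and was counted as 1.

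Enzymes of deoxynucleotide synthesis had a median difference of 0.027 over 4 genes and no pair of groups without overlap. Tyms, which makes thymidylate, read 6.90, 7.08 and 6.94 in Ly-6C-negative cells, against 6.97, 6.71 and 6.76 in Ly-6C-positive cells, with Ly-6C-positive replicate 1 above 2 of the Ly-6C-negative arrays. Its difference was 0.16 (limma adjusted p = 0.813). The ribonucleotide reductase subunit genes Rrm1 and Rrm2 differed by 0.0092 and 0.045, and the thymidine kinase gene Tk1 by -0.11, or by -0.16 with its other probe set, and none of these had an unadjusted p under 0.05.

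Cyclins and cyclin-dependent kinases had small differences, 4 of 6 above 0 with a median of 0.041 and none past the threshold. Ccna2, the cyclin of S phase and of the entry into mitosis, read 5.77, 5.70 and 5.85 in Ly-6C-negative cells, against 5.67, 5.63 and 5.62 in Ly-6C-positive cells. Cdk2, its S phase partner, read 7.57, 7.57 and 7.69 in Ly-6C-negative cells, against 7.46, 7.50 and 7.51 in Ly-6C-positive cells. The groups did not overlap in either gene, but the differences were 0.13 and 0.12 (SE 0.067 and 0.066, limma adjusted p of 0.805 and 0.814). Ccne1 and Ccne2, the cyclins that start S phase, differed by 0.052 and 0.030. Cdk1 and Ccnb2, the kinase and a cyclin of mitosis, differed by -0.050 (95% interval -0.26 to 0.16) and -0.023 (95% interval -0.19 to 0.14).

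Among the mitotic kinases and checkpoint genes 6 of 9 lay above 0, with a median of 0.045. Bub1, a kinase of the spindle checkpoint, read 4.32, 4.21 and 4.32 in Ly-6C-negative cells, against 4.12, 3.86 and 4.20 in Ly-6C-positive cells, a difference of 0.23 (SE 0.093, limma adjusted p = 0.704). Birc5, the gene of survivin, which sits with Aurora B on chromosomes, read 6.27, 6.15 and 6.18 in Ly-6C-negative cells, against 5.99, 5.99 and 6.11 in Ly-6C-positive cells, a difference of 0.17 (limma adjusted p = 0.718). The groups of both genes did not overlap. The partners of these genes showed smaller values: Aurkb, the kinase of the same complex as survivin, differed by -0.031, and Bub1b, which acts beside Bub1, by 0.061. Plk1 and Aurka, kinases of mitotic entry and spindle poles, Cdc20, the activator of the anaphase ligase, the kinase gene Melk, and Chek1, a kinase that guards replication, lay between -0.073 for Melk and 0.13 for Chek1, and all 5 overlapped.

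Genes of the spindle, the kinetochore and cytokinesis went both ways, 3 of 8 above 0 and 5 below. Only 1 of these 8 was brighter than the median gene. Cenpe, a kinesin that carries chromosomes to the spindle equator, read 5.14, 5.17 and 5.04 in Ly-6C-negative cells, against 4.91, 4.89 and 4.68 in Ly-6C-positive cells. Kif11, the kinesin that pushes spindle poles apart, read 5.61, 5.35 and 5.55 in Ly-6C-negative cells, against 5.22, 5.13 and 5.32 in Ly-6C-positive cells. Neither pair of groups overlapped, and the differences were 0.29 and 0.28 (SE 0.081 and 0.086, limma adjusted p of 0.473 and 0.535). Kif23, a kinesin of the midbody needed to complete cytokinesis, ran the other way: it read 6.73, 6.87 and 6.79 in Ly-6C-negative cells, against 6.94, 7.02 and 7.003 in Ly-6C-positive cells, a difference of -0.19 (SE 0.067, limma adjusted p = 0.617). It was the only member lower in Ly-6C-negative cells on all arrays. Cenpf of the kinetochore, the spindle assembly genes Tpx2 and Nusap1, Kif20a, a kinesin of cytokinesis, and Prc1, which bundles the microtubules of the midzone, lay between -0.049 and 0.033 with overlapping groups.

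**Figure D3:**
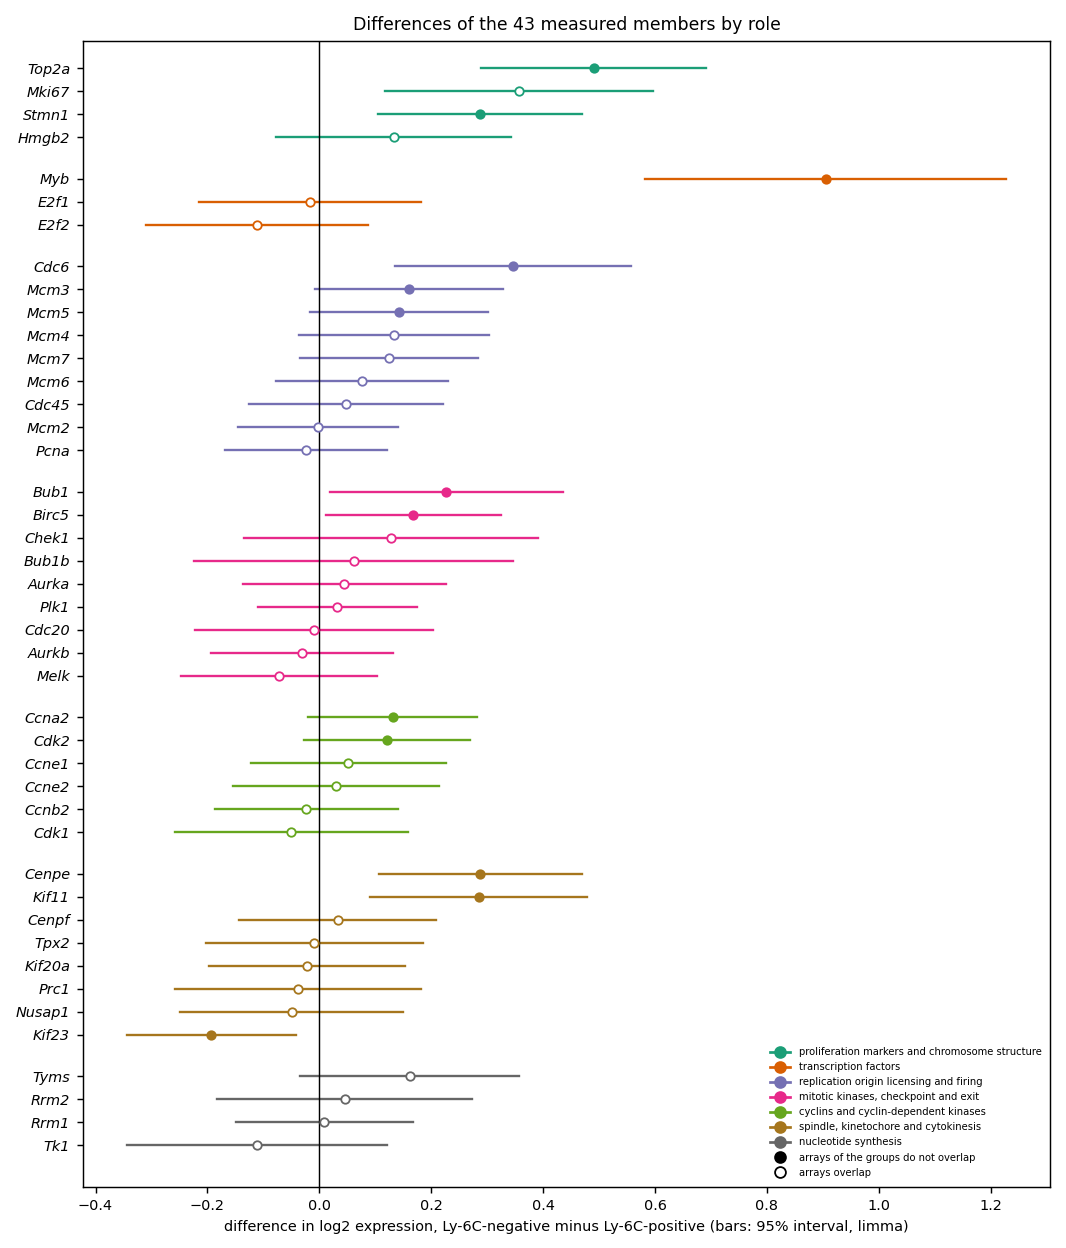
Difference in log2 expression (x axis, Ly-6C-negative minus Ly-6C-positive) of each of the 43 measured members with its 95% interval from limma, grouped by role; filled points are members whose arrays do not overlap between groups. The interval of Myb, from 0.58 to 1.23, is the farthest from 0, and most intervals of the mitotic genes hold 0.

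The unadjusted 95% interval lay within a 1.5-fold difference either way for 40 of 43 members. This count was not taken over all genes, so it marks no trait of the members. The median absolute difference was 0.076 for the members and 0.062 over all genes. The 27 members not given per array had differences from -0.11 to 0.13, 13 above 0 and 14 below, with limma adjusted p from 0.831 to 0.999. Of the 43 members, 21 were brighter than the median gene. Cdc6, Cenpe, Mki67, Kif11, Bub1, Birc5 and Ccna2 were not. By role, 8 of 9 replication origin genes were brighter, against 1 of 9 mitotic kinase and checkpoint genes and 1 of 8 spindle genes. A contrast between these roles thus cannot be told apart from one of brightness. The lower quartile of the probe sets ran from 5.00 to 5.05 over the arrays. Bub1, Cenpf and Tpx2 read below it on all arrays, Cenpe on the Ly-6C-positive arrays, and Nusap1 on some arrays of both groups.

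Averaged over the members as a deviation from each gene's mean over the arrays, Ly-6C-negative replicates 1, 2 and 3 stood at 0.070, 0.045 and 0.033, against -0.036, -0.086 and -0.027 in Ly-6C-positive replicates 1, 2 and 3. Without Myb the Ly-6C-negative arrays stood at 0.028 to 0.053, against -0.075 to -0.014 in the Ly-6C-positive arrays, so the groups did not overlap either way. After removal of the group means, the mean correlation between pairs of members over the 6 arrays was 0.012, against 0.0027 between pairs of all genes, and both are weak.

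The rest of the pathway was described from 5 lists of 181 further measured genes, none past the threshold with or without the block (20 genes, or 0.100% of all, passed in the higher direction and 9, or 0.0451%, in the lower). Unadjusted, limma's p was under 0.05 for 22 of them in the higher direction, against 3.44% of all genes. In the lower direction it was so for 2, against 3.27%. Of the 181, 131 lay above 0, with a median of 0.044. Of all genes 47.8% lay above 0. Mitosis genes had 47 of 67 above 0, with the smallest p for the condensin gene Smc2 at 0.34 (limma adjusted p = 0.217) and the kinetochore gene Ndc80 at 0.39 (limma adjusted p = 0.252), which read 8.13, 8.18 and 7.92 in Ly-6C-negative cells, against 7.74, 7.71 and 7.61 in Ly-6C-positive cells. Replication genes had 41 of 56 above 0, with Pole2, a subunit of DNA polymerase epsilon, at 0.35, the clamp loader gene Rfc3 at 0.28 and Timeless at 0.23. Among the G1 cyclins and kinases 12 of 19 lay above 0, and Cdk6, a kinase of G1 in lymphocytes, at 0.39 read 7.97, 7.65 and 7.69 in Ly-6C-negative cells, against 7.30, 7.47 and 7.37 in Ly-6C-positive cells (limma adjusted p = 0.357). Of the list of E2F factors and their partner complexes 14 of 16 lay above 0, with a median of 0.089 and E2f8 at 0.15. Genes that restrain the cycle lay above 0 in 17 of 23, with a median of 0.055, among them Ccng2 at 0.28, Cdkn3 at 0.17 and the antiproliferative gene Btg1 at 0.16. Each of the 5 lists, that of restraining genes included, lay mostly above 0.

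**Figure D4:**
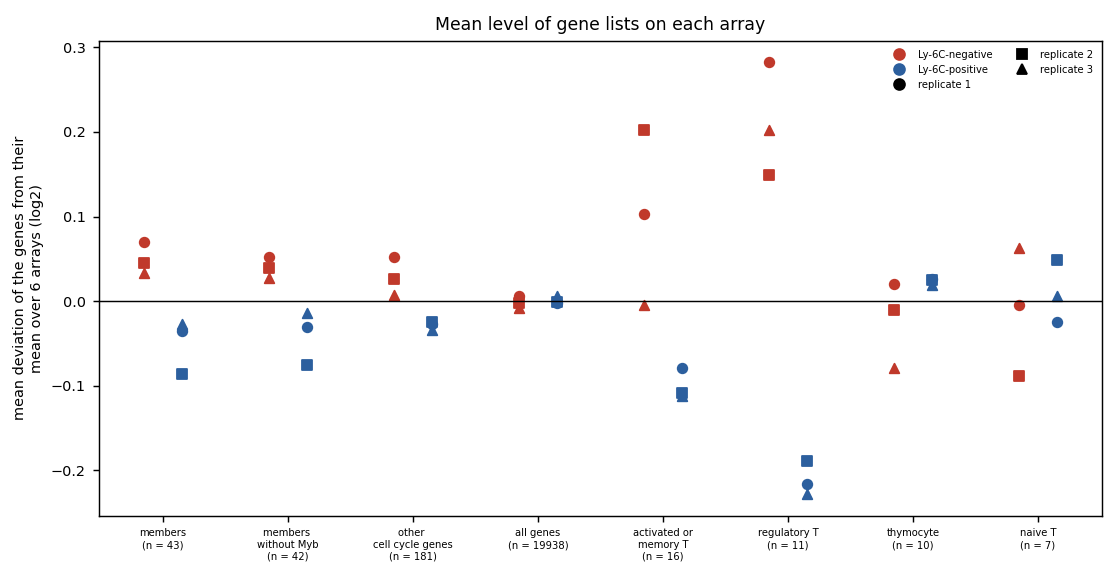
Mean deviation of the genes of each list from their own mean over the 6 arrays (y axis, log2), for each Ly-6C-negative array (red) and Ly-6C-positive array (blue); symbols are replicates. The members stand between 0.033 and 0.070 in Ly-6C-negative arrays, against -0.086 to -0.027 in Ly-6C-positive arrays, and the lists of activated or memory and of regulatory T cell genes are apart by more.

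Marker lists of activated and of regulatory T cells moved with the members, and their part in the result was not tested. Over all genes 47.8% lay above 0. Of 16 activated or memory T cell genes 12 lay above 0, and their mean level ran from 6.91 to 7.12 in Ly-6C-negative arrays, against 6.80 to 6.83 in Ly-6C-positive arrays. Il2rb, the IL-2 and IL-15 receptor beta chain, passed at 1.12 (limma adjusted p = 0.000860), and Id2 missed the threshold (limma adjusted p = 0.144) but passed with the block (limma adjusted p = 0.0158), while the activation marker Cd69 and the cytokine gene Ifng differed by -0.024 and 0.026. Lgals1 of the same list differed the other way, by -0.26 with overlapping groups (limma adjusted p = 0.726), as did the memory marker Cd44 of the sort gate given above. Of 11 regulatory T cell genes 9 lay above 0, and their mean level ran from 7.27 to 7.40 in Ly-6C-negative arrays, against 6.89 to 6.93 in Ly-6C-positive arrays. Ctla4, Izumo1r, Ikzf2 and Gpr83 passed, and Foxp3 itself differed by 0.013 (95% interval -0.21 to 0.23). Of the thymocyte list, whose cells divide and express Myb, 4 of 10 genes lay above 0 and the mean level ran from 6.33 to 6.43 in Ly-6C-negative arrays, against 6.43 to 6.44 in Ly-6C-positive arrays. Dntt was lower by 2.59-fold (limma adjusted p = 0.00768), Cd24a read 7.31 to 8.16 in Ly-6C-negative cells, against 6.53 to 6.93 in Ly-6C-positive cells, and passed with the block (limma adjusted p = 0.148 without it and 0.00313 with it), and Rag1 and Ptcra differed by 0.066 and -0.029. The B cell, myeloid and naive T cell lists overlapped between groups in mean level. Of the 7 naive T cell genes 5 lay above 0. Dapl1 of that list differed by -0.49 with overlapping groups (limma adjusted p = 0.477, and 0.167 with the block). All 3 same-number differences of Dapl1 were below 0, and it passed in 2 of 17 alternatives. Of 8 NK genes 6 lay below 0, with a median difference of -0.054, and the mean level ran from 5.29 to 5.42 in Ly-6C-negative arrays, against 5.66 to 5.72 in Ly-6C-positive arrays. Klrd1 and Gzma were lower past the threshold and Prf1 with the block, while Eomes differed by 0.27 with no overlap (limma adjusted p = 0.473). The erythroid list of 3 genes overlapped in mean level. Of it Car2 and Klf1 were lower with no overlap, by differences of -0.24 and -0.20 (limma adjusted p of 0.621 and 0.741). The scale has no 0, so no marker can be called absent.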

How the data were processed

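The authors deposited log2 expression values of 6 Affymetrix arrays with 28853 probe sets, for which RMA and Partek are named per the submitters' processing notes, with neither version nor role. Per the labels' protocols, 50 ng of total RNA was amplified and 5 µg of cDNA labelled with biotin. RMA equalises the arrays' distributions, so a change shared by all genes cannot be seen.

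Probe sets were named by the platform annotation: 21789 had 1 symbol, 1621 several (left out), and 5443 were not listed. Symbols were updated by Entrez ID, and the brightest probe set of each gene was kept. The test was limma's moderated linear model (version 3.58.1, R 4.3.3, lmFit, eBayes, 2-sided, Benjamini-Hochberg over 19938 genes, threshold 0.05), with no covariate and no filter; figures used matplotlib 3.10.9. Only the limma fit without the block was tested on simulated data, with independent noise. Its recovery check was set at a difference of 1, which is larger than that of any member. Promoter sequences are from RefSeq on GRCm38.p6.

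Replicate numbers are shared by the groups. Deviations from group means of same-numbered arrays correlated across genes at 0.129, 0.128 and 0.107. These are all above 0.1, so the numbers were read as possible pairs. The fit without the block is the main one, and the block is an alternative to it. Deviations from a group mean add up to 0 over its arrays, so these correlations are not independent of each other. Over the members alone these correlations were 0.28, 0.24 and -0.039, while unlike numbers reached 0.23. The members thus do not show a pairing for replicate 3. The labels do not state a pairing, so the Myb call with the block rests on this reading.

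Genes given per array are the 16 members with the smallest p; from the other lists up to 4 genes with the smallest p are eligible. Cd69, Ifng, Lgals1, Foxp3, Rag1 and Ptcra were named as markers after their values were seen. The members and lists were chosen with earlier results of these data known.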

Additional observations from a re-analysis of the deposited data

How the results depend on the processing

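Over 17 alternatives no named member changed direction; those whose groups do not overlap could not do so when an array was left out, so this is no sign of stability. With the replicate block, members past the threshold went to 1 and all genes past it to 41 from 29. Subtracting array medians gave 1 member (Myb, limma adjusted p = 0.0437). It also left 32 of 43 members above 0, with a median difference of 0.069. Array weights gave 2 members (Myb and Top2a, limma adjusted p of 0.0146 and 0.0220) with 54 genes in all. Leaving out 1 array gave 0 to 2 members, 5 to 47 genes in all and a median difference of the members from 0.054 to 0.094, the highest without Ly-6C-negative replicate 1; the 2 members came without Ly-6C-negative replicate 2. Without the genes dimmer than the median gene, 15 of the 21 members left lay above 0, with a median of 0.076. The block with 1 replicate pair left out, added after seeing the data, gave 0 to 3 members, 7 to 66 genes in all and medians from 0.056 to 0.093, and 1 other cell cycle gene, Cenph (named after its values were seen), without the replicate 3 pair. A second quantile normalization, averaging the probe sets of a gene, testing each probe set by itself and the trend and robust settings left 0 members past the threshold. The causes were not tested.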
